A study of Rattus norvegicus with 9 samples.

Results

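Interferon-stimulated genes are genes that cells switch on when interferon binds its receptors. A list of 38 was picked by symbol, and all 38 were found among the 19367 genes of a kidney RNA sequencing table from rats. Their levels were followed across 9 libraries in 3 groups of 3. The first group was Wistar-Kyoto rats (WKY, the normotensive strain), the second was spontaneously hypertensive rats (SHR), and both received only a vehicle, given by mouth and named as distilled water in one label field and as saline in another. The third group was SHR given dapagliflozin, an inhibitor of the kidney glucose carrier SGLT2, by mouth at 10 mg/kg per day. All rats were 3 months old at the start and treatment ran for 8 weeks. The strain field of the labels reads Wistar-Kyoto for every sample, so titles set the groups. Nothing in the labels ties a library to 1 animal, and p-values measure the spread between these libraries.

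Type I and type II interferons signal through JAK kinases to STAT proteins. STAT2 and IRF9 belong to a complex that binds the interferon-stimulated response element (ISRE) in the promoters of its targets, and a different element, GAS, serves the type II response. The proteins made from these targets sense viral RNA, block its translation, cut it, or hold virus particles at membranes. Many are present at a low level in healthy tissue, where leukocytes, endothelium and tubule cells all carry the receptors.

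Levels are given as FPKM, which is scaled by transcript length and so can be compared between genes. A gene was tested when it reached 1 FPKM in at least 3 libraries, which 37 members and 13127 genes in all did. Only Oas2, an enzyme that makes the 2-5A second messenger, did not, at 0.35, 0.95 and 1.44 FPKM in WKY, 0.56, 0.29 and 0.07 in SHR and 0.24, 0.48 and 0.42 in treated SHR. Changes are differences of log2(FPKM + 1), and calls were made in limma where the adjusted p was below 0.05.

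Libraries of 1 group differed in nephron markers, with WKY 2 apart from the other WKY libraries and treated SHR 1 apart from the other treated ones. The summed level of 8 late proximal tubule genes was 5078 FPKM in WKY 1 against 2515 and 4089 in WKY 2 and 3, and 3065 in treated SHR 1 against 1074 and 942 in treated 2 and 3. Groups differed in such markers as well. The 7 collecting duct markers summed to 654, 1237 and 785 FPKM in WKY. They summed to 1373, 1338 and 1663 in SHR and to 2001, 2743 and 3708 in treated SHR. All 7 were called higher for treated SHR against WKY, where 16.8% of all genes were. In that comparison 3 of 8 late proximal markers were called lower, where 6.09% of all genes were. How this bears on the members was not tested. Podocyte, thick limb and proximal markers were present in all 9 libraries. The 6 pan-leukocyte markers summed to between 32.9 and 63.6 FPKM. Siglech, a marker of plasmacytoid dendritic cells, was listed at 0 in every library.

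Promoter sequences of the members were searched for the ISRE and for GAS. RefSeq promoters of the GRCr8 build (250 bases before to 50 after the start site, from the reference strain and not from WKY or SHR) were at hand for 28 of the 38 members, and 18 of these, or 64.3%, held the ISRE core (GAAA, 2 bases of any kind, GAAA) on either strand. The same core was in 3.92% of all 33469 promoters of that length and in 3.1% of the 16571 that belong to genes of the expression table. The members were listed as interferon-stimulated genes, so these shares are a description and not a test. No promoter was at hand for Ifit1, Ifit2, Ddx58, Dhx58, Ifitm1, Isg15, Mx2, Oas2, Rtp4 and Usp18, so these 10 members were not searched. The GAS core TTCNNNGAA, which reads the same on both strands and was searched separately, was in 7 of the 28, or 25.0%, and in 8.87% of all promoters. A match is a description of letters and not a shown binding site. Windows of 30 bases around the ISRE core, in capitals, follow for the members that were called in any comparison and matched. They are also given for 3 other members, Irf7, Ifi27 and Bst2. Ifitm2 and Ifitm3, of higher mean level than these, hold the core as well and are not shown. Runs that begin with TTTC have the core on the other strand. Positions are those of the first base in capitals, counted from the table's start site as 0. Each lies at its window's GRCr8 place: chr2:243328622-243328651 and chr2:243328654-243328683 (plus strand) for Ifi44l, chr11:78408048-78408077 (plus) for Parp14, chr3:67684008-67684037 (minus) for Ifih1, chr10:57415914-57415943 (plus) for Xaf1, chr1:205800073-205800102 (minus) for Irf7, chr6:128355218-128355247 (plus) for Ifi27 and chr16:18255079-18255108 (minus) for Bst2. Ifi27 holds another core, not shown, and the capitals of Bst2 cover 2 cores that overlap.
Ifi44l, upstream copy at -91: tctgcttggcTTTCTTTTTCtcatcctgtt
Ifi44l, downstream copy at -59: ttccagtgagGAAAATGAAAgtaaagggca
Parp14, at -76: tccaggaaatGAAAGTGAAAgaagtaagtt
Ifih1, at -59: gaagagaatcGAAACAGAAAccgatgtgtg
Xaf1, at -11: tgtgtgcaaaGAAACAGAAActccaccgaa
Irf7, at -69: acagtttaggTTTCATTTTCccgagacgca
Ifi27, at -84: gagagctgggGAAATGGAAActtacctcat
Bst2, at -131: ccctttccagGAAAATGAAACTGAAAggtg

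Ifi44l and Parp14, the 2 members called lower in both SHR groups, carry the core within this window. The whole windows are shown for these members, 5′ to 3′ on the gene's strand, at chr2:243328473-243328772 (plus strand) for Ifi44l and chr11:78407884-78408183 (plus strand) for Parp14, with each ISRE core in capitals.
Ifi44l: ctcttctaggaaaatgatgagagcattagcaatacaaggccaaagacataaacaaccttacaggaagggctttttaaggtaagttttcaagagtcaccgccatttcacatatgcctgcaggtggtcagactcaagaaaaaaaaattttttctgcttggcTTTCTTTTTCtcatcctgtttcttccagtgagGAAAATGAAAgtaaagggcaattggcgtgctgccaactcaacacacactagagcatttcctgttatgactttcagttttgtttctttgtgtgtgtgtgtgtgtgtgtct
Parp14: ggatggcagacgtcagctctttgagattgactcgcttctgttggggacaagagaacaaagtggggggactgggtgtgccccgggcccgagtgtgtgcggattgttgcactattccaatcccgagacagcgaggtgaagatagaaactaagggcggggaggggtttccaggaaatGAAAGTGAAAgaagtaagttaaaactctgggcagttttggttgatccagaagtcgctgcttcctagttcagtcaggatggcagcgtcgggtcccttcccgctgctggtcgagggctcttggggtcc

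Untreated SHR were first set against WKY, for the difference between the strains. Ifit1 rose in SHR from next to nothing, and Ifi44l and Parp14 fell. These were 3 of the 37 members tested, 1 higher (1.84% of all genes were called higher) and 2 lower (1.12% of all genes were called lower). Among all genes tested, 2.96% were called. At an unadjusted p under 0.05 there were 10 members, against 19.5% of all genes. In 7 members the SHR and WKY libraries did not overlap, against 28.4% of all genes: 3 members lay higher (20.3% of all genes) and 4 lower (8.11% of all genes). The median log2 change of the members was -0.12 and that of all genes was 0.07, with 13 members higher and 24 lower on average, where 64.1% of all genes were higher.

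Ifit1 (gene ID 56824) codes for a protein that binds viral RNA lacking a proper cap and blocks its translation. It was listed at 0, 0.04 and 0 FPKM in WKY 1 to 3, at 6.45, 3.22 and 3.55 in SHR and at 3.61, 6.10 and 6.88 in treated SHR. All 6 SHR libraries lay above all WKY libraries. In limma with Benjamini-Hochberg adjustment the log2 change was 2.37 (SE 0.25, adjusted p = 0.00168) for SHR against WKY and 2.65 (SE 0.25, adjusted p = 0.000706) for treated SHR against WKY. The means were 4.41 ± 1.78 FPKM in SHR and 5.53 ± 1.71 in treated SHR (SD, n = 3). Ifit1 passed the filter of 1 FPKM only through the SHR libraries, where it was high, so its place among the genes tested and called rests in part on that choice. No fold is given against a group listed at or next to 0.

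The relatives of Ifit1 were not called in any comparison. In the GRCr8 order of genes, used here only for neighbours, Ifit1 lies beside Ifit1bl, with Ifit3 and Ifit2 next in the row. Ifit2, an RNA-binding relative, was at 1.98, 3.50 and 3.40 FPKM in WKY, 3.78, 1.81 and 2.41 in SHR and 2.12, 3.39 and 3.52 in treated SHR. Ifit3, a partner of Ifit1 in the RNA-bound complex, was at 1.41, 2.62 and 3.68 in WKY, 3.50, 2.36 and 1.43 in SHR and 2.02, 3.27 and 3.77 in treated SHR. In both of these genes the 3 groups overlapped. Ifit1bl, the near copy, lay between 1.12 and 1.95 FPKM over all 9 libraries. Reads of such close copies can be shared, so the split between Ifit1 and Ifit1bl is uncertain.

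Ifi44l (gene ID 310968) codes for an interferon-induced protein of uncertain function. Its levels were 3.99, 5.22 and 5.02 FPKM in WKY, 1.72, 1.03 and 0.90 in SHR and 1.15, 1.99 and 1.21 in treated SHR. The means were 4.74 ± 0.660, 1.22 ± 0.441 and 1.45 ± 0.469 FPKM (SD, n = 3). Every SHR library, treated or not, was under every WKY library. The log2 change was -1.38 (SE 0.19, adjusted p = 0.00537 in limma) for SHR against WKY and -1.24 (SE 0.19, adjusted p = 0.00605) for treated SHR against WKY. Its neighbour Ifi44, a relative, was at 4.55, 5.44 and 6.12 FPKM in WKY, 6.79, 4.83 and 5.59 in SHR and 5.92, 7.39 and 7.84 in treated SHR. The WKY and SHR libraries of Ifi44 overlapped. The difference between these neighbours was not tested, and reads of the pair can be shared. Of the nearby genes that are not members, both SHR groups lay wholly above WKY in Ptgfr and wholly below it in Adgrl2. Of all genes tested, 14.2% lay above WKY in this way and 5.23% below. Ptgfr reached 1 FPKM only in SHR libraries, treated or not. Adgrl4 and Gipc2 overlapped, and Dnajb4 lay above WKY in untreated SHR only.

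Parp14 (gene ID 303903), a mono-ADP-ribosyltransferase, was at 7.87, 8.93 and 9.58 FPKM in WKY, 6.21, 5.21 and 5.39 in SHR and 5.6, 6.63 and 6.68 in treated SHR. Groups did not overlap between WKY and either SHR group. The log2 change was -0.57 (SE 0.11, adjusted p = 0.0265 in limma) for SHR against WKY and -0.42 (SE 0.11, adjusted p = 0.0271) for treated SHR against WKY. The first call was lost when WKY 2, WKY 3, SHR 1, SHR 2 or SHR 3 was left out, at adjusted p-values of up to 0.124; over all 9 such fits the log2 change lay between -0.64 and -0.51. The second was lost without WKY 3, treated 2 or treated 3, at up to 0.101. On the same stretch of chromosome, Dtx3l, a ubiquitin ligase, and Parp9, its partner, were next in the row. Dtx3l was at 3.13, 6.31 and 4.85 FPKM in WKY, 4.97, 3.61 and 3.72 in SHR and 3.35, 4.61 and 3.93 in treated SHR. Parp9 was at 6.72, 7.75 and 7.53 in WKY, 8.16, 5.76 and 6.71 in SHR and 6.03, 8.35 and 7.95 in treated SHR. Neither separated the groups. On the other side of Parp14 lie Hspbap1, Slc49a4 and Sema5b, which are not members. Slc49a4 was at 31.6, 30.9 and 32.1 FPKM in WKY, 21.9, 20.6 and 20.6 in SHR and 18.4, 19.6 and 17.0 in treated SHR. Both SHR groups lay wholly below WKY in Slc49a4 and wholly above it in Sema5b. Of all genes tested, 19.4% lay wholly outside WKY in this way. In Hspbap1 only treated SHR did, below WKY.

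**Figure D1:**
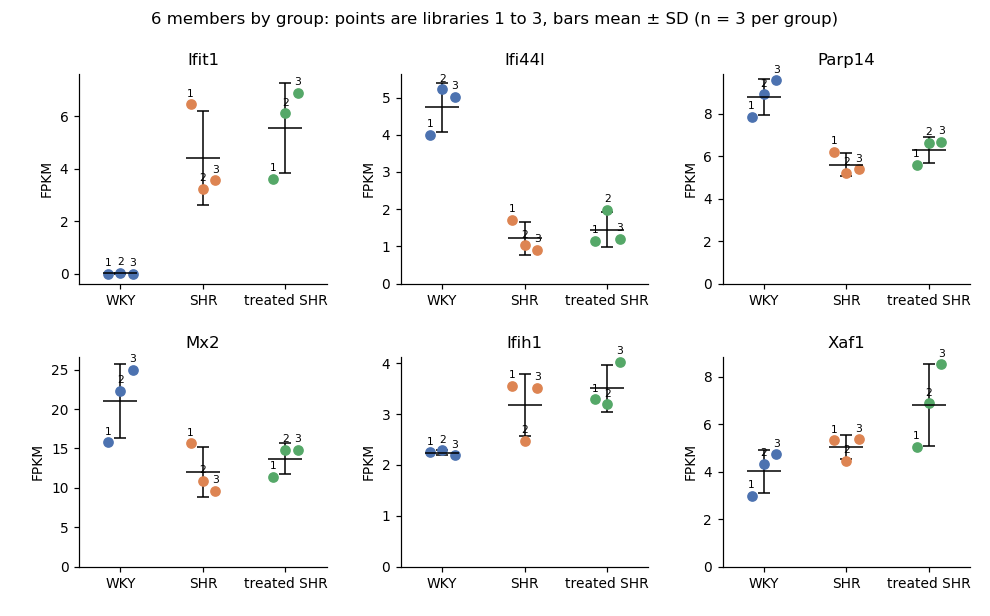
FPKM (vertical axes, from 0) of 6 members in WKY, SHR and treated SHR; points are libraries 1 to 3 and bars the mean and SD (n = 3 per group). Ifit1 is listed at 0, 0.04 and 0 in WKY and at 3.22 or more in all SHR libraries, and Ifi44l and Parp14 lie lower in both SHR groups than in WKY.

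Across both SHR groups, 6 of the 37 members lay wholly outside the WKY range, 3 above and 3 below, where 19.4% of all genes did so (14.2% above and 5.23% below). Beside Ifit1, Ifi44l and Parp14 these were Ifih1, Ifitm2 and Mx2. Mx2, a dynamin-like GTPase, was at 15.8, 22.3 and 24.97 FPKM in WKY, 15.6, 10.9 and 9.66 in SHR and 11.4, 14.8 and 14.8 in treated SHR. SHR 1 came within a small step of WKY 1. Its log2 change against WKY was -0.76 in SHR (SE 0.21), where limma gave an adjusted p of 0.101, and -0.57 in treated SHR (SE 0.21, adjusted p = 0.0763), so that neither was called. Mx1, the other MX GTPase of the same stretch of chromosome, was at 2.68, 4.62 and 4.66 FPKM in WKY, 3.38, 2.07 and 1.30 in SHR and 1.49, 3.00 and 2.67 in treated SHR, and its groups overlapped.

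Among the RNA sensors, Ifih1 (MDA5), which recognises long double-stranded RNA, was at 2.25, 2.29 and 2.19 FPKM in WKY, 3.55, 2.48 and 3.52 in SHR and 3.29, 3.19 and 4.03 in treated SHR. The WKY libraries were close together and under all 6 SHR libraries. Ifih1 passed only in treated SHR against WKY (log2 change 0.47, SE 0.13, adjusted p = 0.0365 in limma), and was at 0.36 (SE 0.13, adjusted p = 0.194) in SHR. Ddx58 (RIG-I), the sensor of short uncapped RNA, was at 31.3, 25.1 and 31.3 FPKM in WKY, 22.15, 26.3 and 23.15 in SHR and 29.6, 18.0 and 21.5 in treated SHR. Dhx58 (LGP2), a helper of MDA5, was at 2.62, 4.39 and 4.04 in WKY, 3.93, 2.39 and 2.39 in SHR and 3.46, 3.72 and 4.55 in treated SHR. The groups overlapped in Ddx58 and Dhx58.

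**Figure D2:**
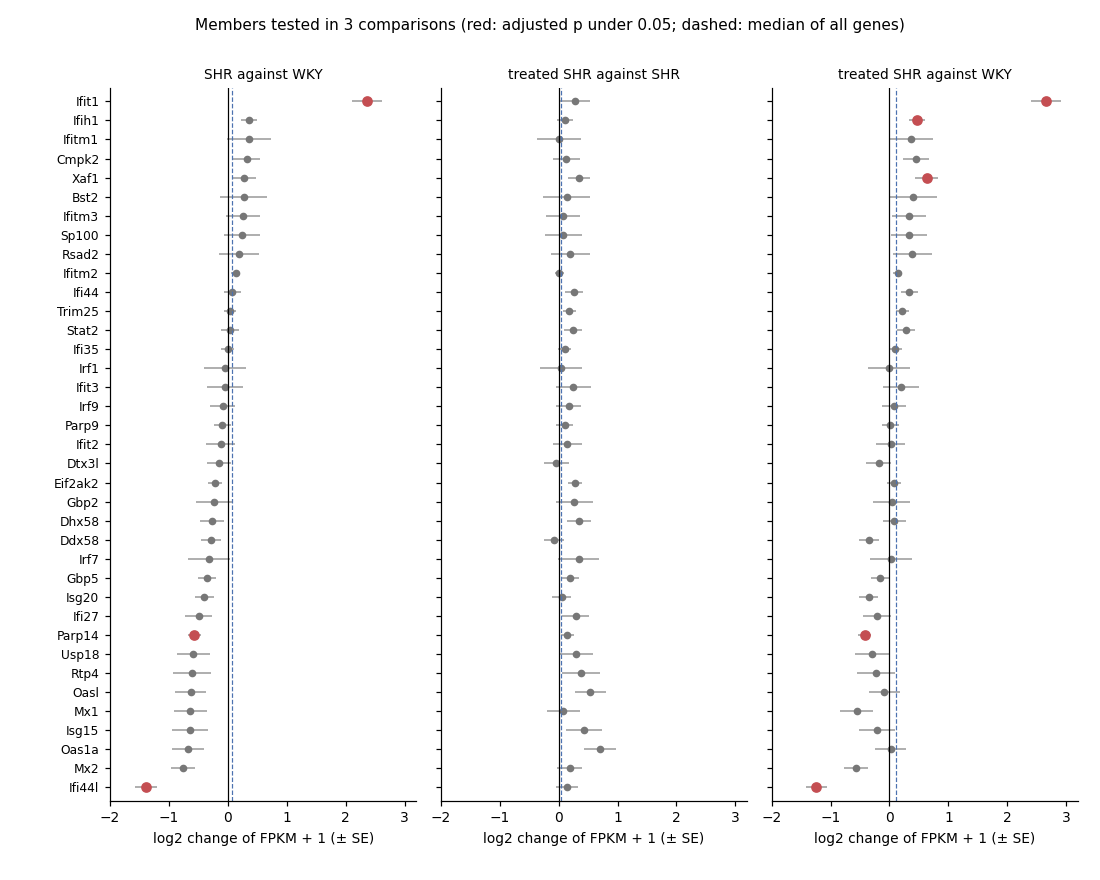
Log2 change of FPKM + 1 with its standard error (horizontal axes) for the 37 tested members in the 3 comparisons; red points passed and the dashed line is the median of all genes tested. Ifit1 (2.37 and 2.65) and Ifi44l (-1.38 and -1.24) lie farthest from 0 in both comparisons with WKY, and no member passed for treated against untreated SHR.

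Treated SHR were set against untreated SHR for the effect of dapagliflozin. No member was called by limma, nor was any other gene (0% called). At an unadjusted p under 0.05 there were 2 members, against 15.2% of all genes. On average 35 of the 37 members were higher in treated SHR, with a median log2 change of 0.18 against 0.04 for all genes, of which 57.4% were higher. The same balance was 32 of 37 with median-of-ratios scaling and 33 with quantile normalization. Most members moved together between libraries, as described below, so these counts are not of independent genes. The mean log2 level of the members was 3.23, 2.79 and 2.78 in SHR 1 to 3. In treated SHR 1 to 3 it was 2.87, 3.25 and 3.29, so SHR 1 lay near treated 2 and 3, and treated 1 near SHR 2 and 3. In 2 members, or 5.41%, the treated libraries lay wholly above the untreated, against 12.6% of all genes, and in 0 members wholly below, against 6.44%. Either way, groups did not overlap in 19% of all genes.

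Oas1a, an enzyme that makes the 2-5A messenger from double-stranded RNA, had the smallest p of the members. It was at 3.56, 7.79 and 4.79 FPKM in WKY, 3.90, 2.52 and 2.28 in SHR and 4.79, 4.22 and 7.03 in treated SHR. All treated libraries lay above all untreated ones and within the WKY range. The log2 change was 0.70 (SE 0.27, adjusted p = 0.295 in limma) for treated against untreated SHR. Oasl, an OAS-like protein, was at 2.99, 6.54 and 5.62 in WKY, 3.74, 2.45 and 2.28 in SHR and 3.34, 5.59 and 4.77 in treated SHR (log2 change 0.54, SE 0.26, adjusted p = 0.356). Eif2ak2 (PKR), the kinase that halts translation on double-stranded RNA, was at 10.5, 9.88 and 9.95 in WKY, 9.94, 7.38 and 8.66 in SHR and 9.39, 10.7 and 12.1 in treated SHR (log2 change 0.28, SE 0.12, adjusted p = 0.32). The Oas1 gene family has several close copies, and reads can be split among them.

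Trim25, the ubiquitin ligase that activates RIG-I, was the other member with treated libraries above all untreated ones. It was at 9.78, 7.66 and 7.60 FPKM in WKY, 8.10, 8.58 and 8.91 in SHR and 10.0, 10.45 and 9 in treated SHR. Ifi44, given above, and Xaf1 completed the 5 members with the smallest p. Xaf1, a partner of the apoptosis inhibitor XIAP, was at 2.99, 4.33 and 4.74 in WKY, 5.32, 4.46 and 5.37 in SHR and 5.04, 6.88 and 8.52 in treated SHR. Its log2 change was 0.35 (SE 0.19, adjusted p = 0.389 in limma) for treated against untreated SHR.

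Treated SHR against WKY, which shares its libraries with the other 2 comparisons, asked how far treated rats stood from the control strain. Ifit1, Ifih1 and Xaf1 were higher and Ifi44l and Parp14 lower, which made 5 of the 37 members, 3 higher and 2 lower. Of all genes, 16.8% were called higher and 6.09% lower, 22.9% together. At an unadjusted p under 0.05 there were 7 members, against 40.2% of all genes, and 23 members were higher on average, or 62.2%, against 64.6% of all genes. In 7 members the groups did not overlap (38.6% of all genes), 4 of them higher (28.2%) and 3 lower (10.4%). The count of 5 fell to 3 without WKY 1 or SHR 1 and to 2 without WKY 3, treated SHR 2 or treated SHR 3. Xaf1 had a log2 change of 0.63 (SE 0.19, adjusted p = 0.0438 in limma). Its call held in 1 of the 9 fits that left out a library, the one without treated 1, and that of Ifih1 in 3 of the 9. With median-of-ratios scaling, which shifted the median of all genes by -0.12 in this comparison, neither Ifih1 nor Xaf1 passed and Mx2 did, and the members on average went from 23 higher and 14 lower to 14 higher and 23 lower.

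Libraries of 1 group varied widely in the members. The median range of a member within a group was 0.64 in WKY, 0.53 in SHR and 0.54 in treated SHR on the log2 scale, against 0.26, 0.22 and 0.31 for all genes. The median size of the difference between group means was 0.28 for SHR and WKY, 0.18 for treated and untreated SHR and 0.22 for treated SHR and WKY. For all genes these sizes were 0.155, 0.137 and 0.235. A range over libraries and a difference of means are unlike measures, so the first is not set against the second.

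Within each group the same library differed from the others in most members. WKY 1 was the lowest WKY library in 29 of 37 members, or 78.4%, against 45.1% of all genes. SHR 1 was the highest SHR library in 32 members, or 86.5%, against 32.3% of all genes. Treated SHR 1 was the lowest treated library in 32 members, or 86.5%, against 57.0% of all genes. All of these orders held together in 27 members, or 73.0%, and in 13.9% of all genes. The orders were read from the values and are a description, with no test.

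The mean log2 level of the 37 members was 2.72, 3.25 and 3.22 in WKY 1 to 3. It was 3.23, 2.79 and 2.78 in SHR and 2.87, 3.25 and 3.29 in treated SHR. A median member was 0.60 higher in WKY 2 than in WKY 1 on the log2 scale, 0.44 higher in SHR 1 than in SHR 2 and 0.41 higher in treated SHR 2 than in treated SHR 1. The difference was 0.51 for WKY 3 less WKY 1, 0.43 for SHR 1 less SHR 3 and 0.44 for treated SHR 3 less treated SHR 1. The pairs without library 1 were closer, with -0.04 for WKY 3 less WKY 2, -0.01 for SHR 2 less SHR 3 and 0.01 for treated SHR 3 less treated SHR 2.

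**Figure D3:**
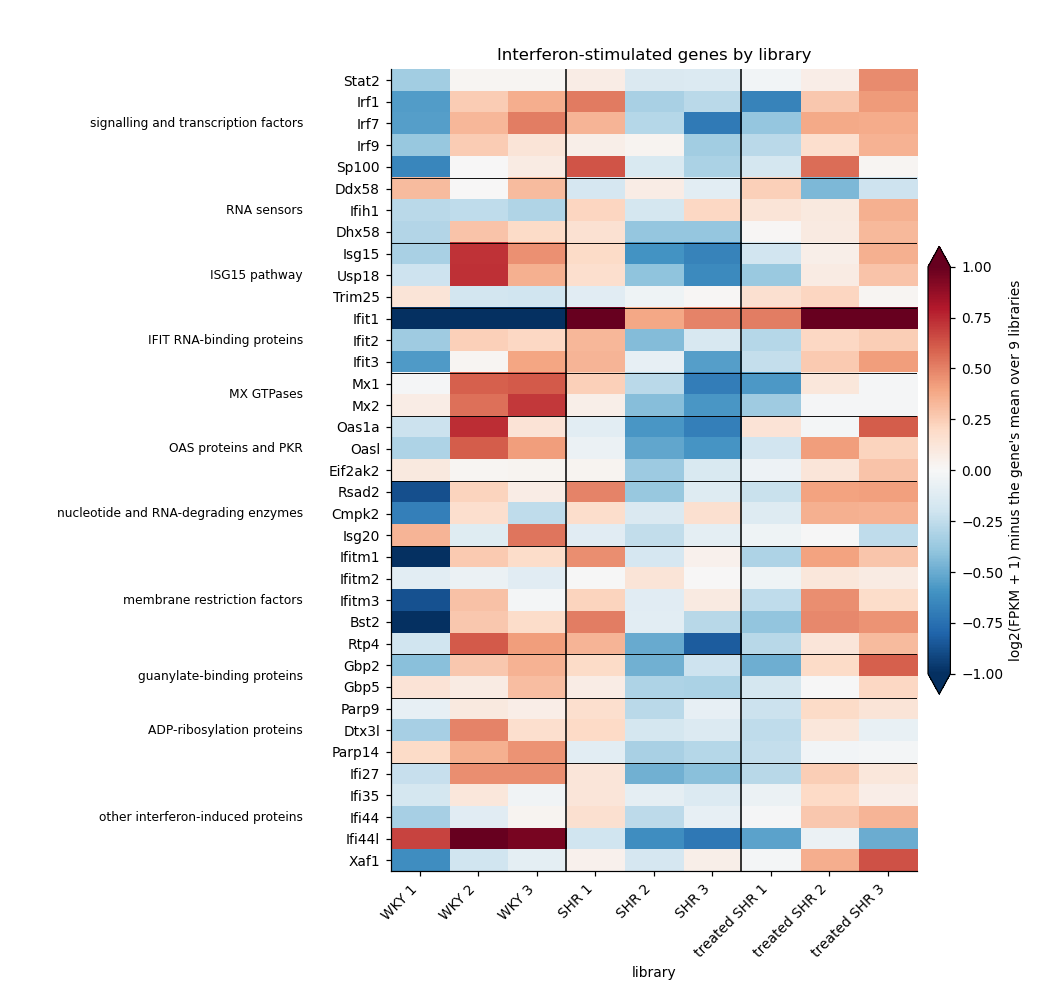
Log2(FPKM + 1) of the 37 tested members minus each member's mean over 9 libraries, with libraries across and members grouped by role; the colours are cut at -1 and 1. WKY 1, SHR 2, SHR 3 and treated SHR 1 are mostly blue, and Ifit1 and Ifi44l follow strain.

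The regulators of the response followed this order. Irf7, the factor that amplifies interferon production, was at 8.85, 17.1 and 19.6 FPKM in WKY, 17.2, 10.8 and 7.84 in SHR and 10.0, 17.75 and 17.6 in treated SHR. Irf9, the DNA-binding part of the STAT complex, was at 8.90, 14.4 and 13.1 in WKY, 12.4, 12.1 and 9.14 in SHR and 9.69, 13.45 and 15.4 in treated SHR. Stat2, its partner, was at 10.75, 14.2 and 14.2 in WKY, 14.8, 12.6 and 12.6 in SHR and 13.7, 14.7 and 19.8 in treated SHR. In each of them WKY 1 and treated SHR 1 were the lowest and SHR 1 the highest library of their group. The same held for Irf1, a factor of the type II response, which lay between 3.73 and 9.75 FPKM, and for Sp100, a nuclear body protein, between 0.65 and 3.01.

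In the ISG15 pathway, Isg15, a ubiquitin-like modifier, was at 8.12, 17.8 and 14.6 FPKM in WKY, 12.1, 6.54 and 6.19 in SHR and 9.02, 10.9 and 13.6 in treated SHR. Usp18, the protease that removes ISG15 and damps the receptor, was at 2.53, 5.76 and 4.21 in WKY, 3.57, 2.08 and 1.63 in SHR and 2.16, 3.31 and 3.98 in treated SHR. Both had the lowest WKY and treated values in library 1 and the highest SHR value in library 1.

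Among the membrane proteins were the 2 members of highest mean level, Ifitm2 and Ifitm3. Ifitm2, which hinders virus entry, was at 208, 214 and 207 FPKM in WKY, 223, 245 and 224 in SHR and 217, 242 and 236 in treated SHR. It lay above WKY in all 6 SHR libraries by a small margin. For SHR against WKY the log2 change of 0.13 (SE 0.08) was not called by limma (adjusted p = 0.363). Ifitm3, which blocks fusion in endosomes, was at 30.25, 68.9 and 55.3 in WKY, 65.4, 51.7 and 59.7 in SHR and 46.95, 77.8 and 63.9 in treated SHR. Bst2 (tetherin), which holds budding virus at the cell surface, was at 13.04, 35.9 and 33.6 in WKY, 42.6, 27.45 and 24.3 in SHR and 22.25, 41.6 and 40.8 in treated SHR. Ifitm3 and Bst2 had the library order described above and Ifitm2 did not. Ifitm1 lay between 7.34 and 24.98 FPKM and Rtp4, a receptor-trafficking protein, between 1.49 and 5.76, both in that order. The Ifitm genes are near-identical in part, and reads can be exchanged among them.

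Enzymes that act on nucleotides and RNA were weakly expressed. Rsad2 (viperin), which makes a chain-ending nucleotide, was at 1.07, 3.44 and 3.00 FPKM in WKY, 4.37, 1.92 and 2.48 in SHR and 2.26, 4.03 and 4.05 in treated SHR. Cmpk2, its neighbour in the genome and a nucleotide kinase, was at 1.63, 3.77 and 2.56 in WKY, 3.78, 2.83 and 3.72 in SHR and 2.88, 4.42 and 4.40 in treated SHR. Isg20, an exonuclease, was at 5.34, 3.62 and 6.26 in WKY, 3.65, 3.24 and 3.68 in SHR and 3.88, 3.99 and 3.21 in treated SHR. Rsad2 and Cmpk2 had the common order and Isg20 did not.

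Guanylate-binding proteins attack the membranes around microbes. Gbp2 was at 2.86, 5.22 and 5.58 FPKM in WKY, 4.91, 2.71 and 3.47 in SHR and 2.68, 4.92 and 6.83 in treated SHR. Gbp5 was at 2.01, 1.89 and 2.39 in WKY, 1.88, 1.21 and 1.20 in SHR and 1.42, 1.73 and 2.16 in treated SHR, and SHR lay wholly below WKY, at a log2 change of -0.36 that limma did not call (adjusted p = 0.25). Ifi27, a mitochondrial and nuclear envelope protein, was at 28.02, 45.9 and 45.95 in WKY, 35.9, 23.3 and 24.4 in SHR and 27.1, 39.2 and 35.65 in treated SHR. Ifi35, a partner of NMI, was at 13.85, 17.2 and 15.4 in WKY, 17.3, 14.75 and 14.3 in SHR and 15.1, 18.3 and 16.6 in treated SHR. Ifi27 and Ifi35 had the common order and overlapping groups.

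The 10 tested members outside the common order were Ifit1, Ifih1, Xaf1, Ifitm2, Ddx58, Eif2ak2, Trim25, Oas1a, Isg20 and Gbp5. Of these, 8 had a promoter in the table and 7 held the ISRE core. Of the members in the common order, 20 had a promoter and 11 held it.

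Of 64 other interferon-induced genes listed for comparison, 61 were in the table and 51 were tested. None was called for SHR against WKY or for treated against untreated SHR, and 8 of the 51 were called higher for treated SHR against WKY, a share near the 16.8% of all genes. These were Stat3, Zc3hav1, Shisa5, Nmi, Trim34, Parp10, Slfn5 and Znfx1. Zc3hav1 (ZAP), which targets CpG-rich viral RNA, was at 9.28, 9.89 and 9.31 FPKM in WKY, 11.8, 10.5 and 12.1 in SHR and 12.6, 14.4 and 15.1 in treated SHR (log2 change 0.52, SE 0.09, adjusted p = 0.00941 in limma). The list had the library order of the members, in 84.3% of its genes for WKY 1, 68.6% for SHR 1 and 88.2% for treated SHR 1, and in 60.8% for the orders together.

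Upstream of the members, no ligand was tested. Of 11 interferon genes listed, Ifnk and Ifne were in the table, at no more than 0.19 and 0.04 FPKM in any library. All 6 receptor genes were tested and 0 were called in any comparison. Ifnlr1, the specific chain of the type III receptor, was at 0.76, 0.59 and 0.60 FPKM in WKY, 0.79, 1.34 and 1.39 in SHR and 0.97, 0.95 and 1.62 in treated SHR. It was named after its values were seen, as the 1 receptor gene whose 6 SHR libraries all lay above WKY, and limma gave an adjusted p of 0.255 for SHR and 0.122 for treated SHR. Ifnlr1 reached 1 FPKM only in SHR libraries, treated or not. It passed the filter only through the groups where it was high, so its place among the genes tested rests in part on that choice. Ifngr1, the type II receptor chain, was at 15.1, 17.9 and 19.7 FPKM in WKY, 23.7, 20.7 and 19.2 in SHR and 17.9, 22.7 and 21.35 in treated SHR. Il10rb, a shared chain of the type III receptor, was at 29.9, 20.4 and 26.1 in WKY, 19.8, 18.98 and 21.5 in SHR and 21.3, 18.5 and 19.3 in treated SHR. Jak1, a receptor-bound kinase, was at 24.8, 27.3 and 27.1 in WKY, 29.6, 28.1 and 26.9 in SHR and 28.4, 32.3 and 33.3 in treated SHR.

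Of 10 tested genes that sense nucleic acid and induce interferon, 3 were called higher for treated SHR against WKY, where 16.8% of all genes were, and 0 in the other comparisons. Mavs, the mitochondrial adaptor of RIG-I and MDA5, was at 28.2, 36.7 and 34.5 FPKM in WKY, 37.5, 39.8 and 40.05 in SHR and 37.05, 53.2 and 59.9 in treated SHR. Its log2 change was 0.56 (SE 0.17, adjusted p = 0.0428 in limma). Ticam1, the adaptor of TLR3, and Tbk1, the kinase that activates IRF3, were the others, at log2 changes of 0.61 and 0.34. Irf3 itself, the factor that Tbk1 activates, was at 86.5, 80.4 and 77.4 in WKY, 107, 84.2 and 99.9 in SHR and 71.2, 95.8 and 86.8 in treated SHR, with overlapping groups. None of the 10 listed brakes of the pathway was called.

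Markers of some other cells had the library order of the members and those of others did not. The 6 pan-leukocyte markers summed to 32.9, 44.8 and 55.2 FPKM in WKY, 63.6, 41.05 and 39.6 in SHR and 34.7, 49.7 and 52.0 in treated SHR, and all 6 had the orders of the members. Of 9 tested macrophage markers 88.9% had them. All 12 listed macrophage genes summed to 99.7 to 254 FPKM in WKY, 109 to 377 in SHR and 89.5 to 246 in treated SHR, of which Lyz2 alone made 66.8 in WKY 1 and 280 in SHR 1, and Cd163 was under 0.1 in every library. Endothelial markers summed to 121 to 259 FPKM in WKY, 216 to 319 in SHR and 206 to 310 in treated SHR, and 75.0% of 12 had the orders. Of the dendritic cell markers and of the T and NK cell markers, 5 tested in each, 60.0% had them, as did 50.0% of 8 early proximal tubule markers. Bst2, itself a member, was among the dendritic cell markers that had them. None of the tested B cell (2), neutrophil (2), late proximal tubule (8), thick ascending limb (5), collecting duct (7) or podocyte (8) markers had all 3 orders. Podocyte markers were lowest in WKY 1 and treated SHR 1 in all 8 genes, but SHR 1 was the highest in 0 of 8. The part of these cells in the order of the members was not tested, and in whole kidney fewer cells of a type and less RNA per cell cannot be told apart.

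**Figure D4:**
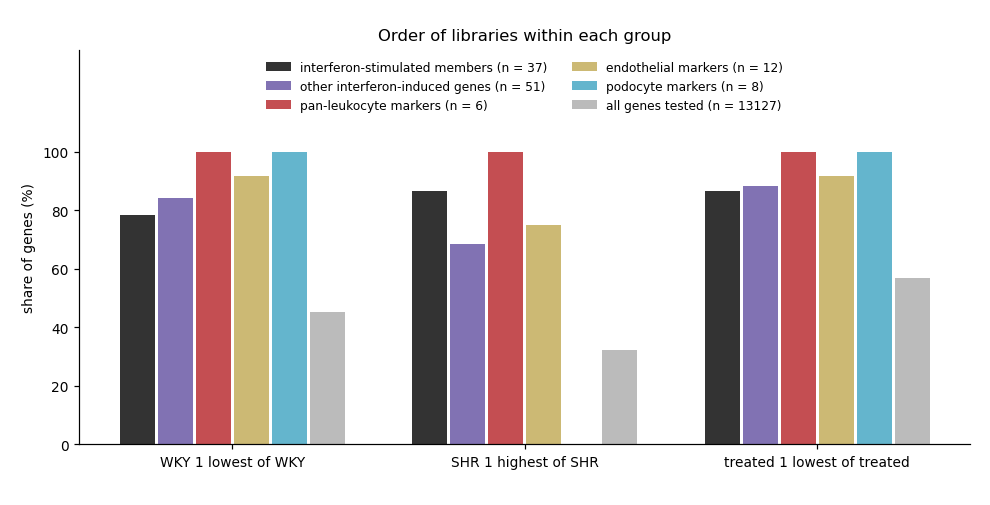
Share of genes (vertical axis, in percent) in which WKY 1 was the lowest WKY library, SHR 1 the highest SHR library and treated SHR 1 the lowest treated library, for the members, 4 comparison lists and all genes tested. Members stand at 78.4, 86.5 and 86.5% and all genes at 45.1, 32.3 and 57.0%; the podocyte bar for SHR 1 is at 0.

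Fits with the mean of a list as a covariate were added after the data were seen, and no cause was tested with them. With the pan-leukocyte markers as the covariate, 418 genes in all were called for SHR against WKY, against 388 without it, and the log2 change for SHR against WKY was 2.33 for Ifit1 (adjusted p = 0.000329 in limma), -1.41 for Ifi44l (adjusted p = 0.00173) and -0.58 for Parp14 (adjusted p = 0.00691). Mx2 passed in that fit at -0.80 (adjusted p = 0.00205), as did Mx1 at -0.69 (adjusted p = 0.0249) and Ifi27 at -0.54 (adjusted p = 0.0483). With the mean of the 51 other interferon-induced genes as the covariate, Ifit1 was at 2.48, Ifi44l at -1.32, Parp14 at -0.52 and Mx2 at -0.65, all called, and 1320 genes in all were called. For treated against untreated SHR, the members lay on both sides of 0 with that covariate, from -0.36 (Irf1) to 0.51 (Oas1a). That covariate is a mean of genes of the same kind, most of them in the members' library order. It draws the members toward 0 by construction, so nothing is concluded from this spread.

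**Figure D5:**
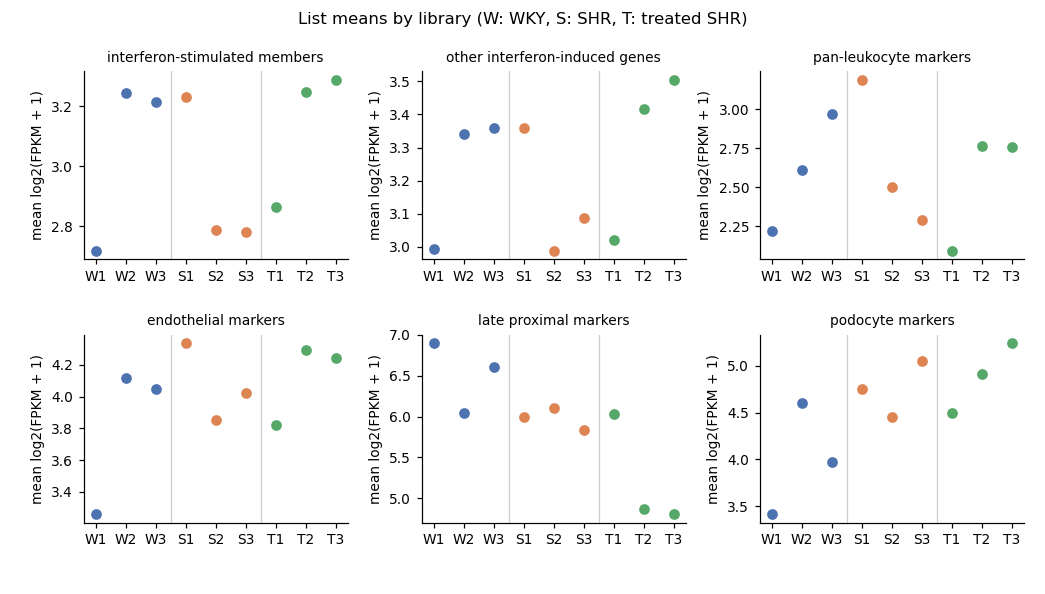
Mean log2(FPKM + 1) of 6 gene lists (vertical axes, which do not start at 0) in WKY 1 to 3 (W), SHR 1 to 3 (S) and treated SHR 1 to 3 (T). The members and the other interferon-induced genes are low in W1, S2, S3 and T1; pan-leukocyte markers are lowest of their group in W1, S3 and T1, and late proximal markers are highest of their group in W1.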

How the data were processed

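Kidney RNA of 9 libraries was sequenced as single-end 50-base reads, per the labels' protocols. HISAT2 2.0.4, Bowtie2 2.2.5 and the build Rnor_6.0 are named in the submitters' processing notes, without roles. The deposited values are FPKM, computed by the authors, per the file headers. The program behind them is not given in the sources used here, and read depth is unknown; FPKM sums were 563643 to 589838 per library. The scaling lets large changes in abundant transcripts move the others.

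Members were matched by symbol. Genes with at least 1 FPKM in at least 3 libraries were kept. log2(FPKM + 1) was fitted with limma 3.58.1 in R 4.3.3 (group means of 9 libraries, intensity trend, two-sided, Benjamini-Hochberg over 13127 genes), which was tested on simulated data. Members and gene lists were chosen with earlier results of these data known. Values in every library were given for called members, up to 3 of each role by mean level, and the 5 smallest p-values per comparison. Of other lists, called genes were named and, upstream of the members, the 2 of highest mean level. Motifs were searched with Python 3.11.15.

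All 38 members matched GRCr8 gene IDs, 1 of them under a newer symbol. Alternatives changed the pseudocount, filter, scaling, variance trend, groups fitted, replicate block and libraries. 1 listed gene upstream of the members is not reported here.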

Additional observations from a re-analysis of the deposited data

How the results depend on the processing

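Single-member changes were followed if called or among the 5 smallest p of a comparison, with Mx2 added for treated SHR against WKY. Of their values, 290 kept direction and side of the threshold under the alternatives, 33 lost a call, 8 gained one, and none turned direction. This pick favours changes that keep their direction. Over all members, 23 higher and 14 lower for treated SHR against WKY became 14 higher and 23 lower with median-of-ratios scaling. Ifit1 and Ifi44l were called against WKY in both SHR groups under every alternative that tested them. Members called numbered 3 for SHR against WKY, and 2 to 3 with a library left out; 6 were called with the pan-leukocyte covariate. For treated against untreated SHR 0 were called with a library left out, and 1, Xaf1, without WKY 1 and treated SHR 1 together. For treated SHR against WKY 5 were called, and 3 without a filter, 3 with a filter of 5 FPKM, 2 with only the 2 groups compared, 9 with other interferon-induced genes as covariate, 8 with the pan-leukocyte covariate, and 2 to 6 with a library left out. With the pan-leukocyte covariate 418 and 3461 genes in all were called in the comparisons of SHR and of treated SHR with WKY, and 3644 in the second with the other covariate. The covariates and the fit without 2 libraries were chosen after the data were seen. The cause was not tested.

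With a replicate block 2, 0 and 5 members were called in the 3 comparisons, and Parp14 lost its call for SHR against WKY. Same-numbered libraries did not deviate together in every pair (correlations from -0.328 to 0.456). Deviations from the mean of a group of 3 sum to 0, so this check cannot exclude a pairing. The labels do not say that the numbers pair animals. Over all genes, 388 were called for SHR against WKY (196 without WKY 1, 167 without WKY 3, 170, 191 and 212 without SHR 1, 2 or 3, 626 without treated SHR 1, 1320 with other interferon-induced genes as covariate), 0 for treated against untreated SHR (1 with the block, 830 without treated SHR 1, 1145 without WKY 1 and treated SHR 1), and 3010 for treated SHR against WKY (806 without WKY 1, 593 without WKY 3, 4791, 1076 and 945 without treated SHR 1, 2 or 3, 1026 with only 2 groups). For SHR against WKY 241 genes were higher and 147 lower, against 220 and 199 with median-of-ratios scaling and 202 and 205 with quantile normalization. For treated SHR against WKY these were 2211 and 799, 1445 and 1251, and 1581 and 1057. Read depth is unknown, so precision of weakly expressed members cannot be given.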
